A study of Arabidopsis thaliana with 2 samples.

Results

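Plant defensins are small secreted proteins held together by disulphide bonds between conserved cysteines, and many of them inhibit the growth of fungi. The PDF1.2 genes of Arabidopsis thaliana are induced through jasmonate and ethylene signalling, in which transcription factors of the ERF family, such as ERF1 and ORA59, act on their promoters, and PDF1.2 transcript is widely used as a readout of that branch. The LCR genes, named for low-molecular-weight cysteine-rich proteins, overlap with the defensins, and several have a PDF name as well. LCR69 is also called PDF2.2.

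The set described here holds 4 genes: PDF1.2 (AT5G44420), PDF1.2b (AT2G26020), LCR69 (AT2G02100) and AT4G22212, a defensin-like gene with no symbol beyond its locus. They are 4 of the 13355 genes named by a probe set that the platform annotation assigns to exactly 1 gene. They were chosen from these same arrays, as defensin genes with a higher signal in BOUNTIFUL. Their differences are therefore a description of what the choice already fixed, with no test.

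The samples were 1 BOUNTIFUL and 1 Ws-0 preparation of total RNA, each hybridised to its own Affymetrix ATH1 array. BOUNTIFUL is a gain-of-function line in the Ws-0 background whose labels give an Activation Tag I/dSpm insert in BOU, and Ws-0, stock N1603, is that background without the insert. Both were grown on a compost, sand and perlite mix under glass at 23 °C in 16 h days, and the 4 youngest rosette leaves were taken at developmental stage 6.50. The labels name no defence treatment, hormone treatment or pathogen, and give no number of plants behind a preparation. In whole leaves, a lower signal from fewer cells of a type and from less RNA per cell cannot be told apart.

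Signals are MAS5 summaries of brightness on a linear scale, and the arrays had medians of 38.9 units in BOUNTIFUL and 39.0 units in Ws-0. A log2 ratio is BOUNTIFUL minus Ws-0 of log2(signal + 7.77), where 7.77 units is the 20th percentile of all signals. This scale understates the difference of dim probe sets. A probe set passed the brightness filter when its mean signal over both arrays reached 39.9 units, and 11373 did. Signals up to 21.9 units in BOUNTIFUL and 16.7 units in Ws-0 were seen in 27 control probe sets for Bacillus subtilis genes, and are called the control range below. Spikes, the known transcripts that are put into the hybridisation mix, had lower signals in BOUNTIFUL, with a mean log2 ratio (no pseudocount) of -0.35 over 9 newer probe sets and -0.55 over 9 older ones. Setting the newer spikes equal moved the median log2 ratio of all passing probe sets to 0.27, and the older ones to 0.45, from -0.06 on the deposited scale. Signs that turn under these scalings are given as such.

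Of the 10 leaf markers, 7 had a named probe set, with signals of 261 to 3729 units in BOUNTIFUL and 158 to 4492 units in Ws-0 (sums of 17172 units in BOUNTIFUL and 13238 units in Ws-0). On the deposited scale 6 of the 7 had a higher signal in BOUNTIFUL, and the log2 ratios of the 7 had a median of 0.70. RCA, which encodes Rubisco activase, went the other way at -0.32, and this became 0.03 with the newer spikes set equal. PORB, a chlorophyll synthesis enzyme, was the 1 with an at least 2-fold difference, at a log2 ratio of 1.64. That count was 4 of 7 with the newer and 5 of 7 with the older spikes set equal. The spike scalings raised the count over all passing probe sets as well. On the deposited scale 527 of these (4.63%) were at least 2-fold higher in BOUNTIFUL. The newer-spike scaling gave 1123 and the older-spike scaling 1673. Nothing about leaf markers is therefore read from the rise in their count. Of 11 markers of flower, pollen, root and seed, the 4 with a named probe set lay between 1.10 and 26.1 units in BOUNTIFUL and between 2.36 and 25.0 units in Ws-0, all below the filter, with sums of 47.4 units in BOUNTIFUL and 55.3 units in Ws-0. EXPA18 was above the control range on both arrays, at 26.1 units in BOUNTIFUL and 25.0 units in Ws-0. EXPA7 was above it in Ws-0 alone, at 21.7 units. The part of these markers in the defensin differences was not tested.

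All 4 defensin genes passed the filter and all 4 had at least a 2-fold higher signal in BOUNTIFUL, against a background of 3.92% of the 5990 named genes that passed (4.63% of passing probe sets). Because the genes were chosen for this difference, nothing is read from that count. Their log2 ratios ran from 2.00 to 3.76, with a median of 2.70, beside a median of -0.05 over all passing genes. That they lie above the latter was fixed by the choice. The 3.76 is that of AT4G22212, whose Ws-0 signal was in the control range and whose ratio depends on the pseudocount. On the deposited scale 3 of the 4 were at least 4-fold higher, where 0.584% of passing genes were, and PDF1.2 stood at 3.99-fold. Nothing is read from this 4-fold count either, since the choice of genes shaped it. It includes AT4G22212, which passed the filter through BOUNTIFUL alone. The count at this mark depends on the scale: all 4 reached it under 6 of 11 alternatives, which were median centring, quantile normalisation, loess, either spike scaling and no pseudocount.

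PDF1.2, which encodes an antifungal defensin, had a signal of 242 units in BOUNTIFUL and 54.8 units in Ws-0. The probe set was above the control range on both arrays, so both signals were measurable. The log2 ratio was 2.00, or 2.14 with no pseudocount. Among passing genes it was the 37th highest. Of the 3397 other passing probe sets within 1.5-fold of its mean signal, the central 95% of log2 ratios ran from -1.21 to 1.34, and 31 (0.913%) were at least as high as PDF1.2. PDF1.2 was chosen for its higher signal, and the window was set after the values were seen. Its rank and this share therefore only describe its place and are no test.

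PDF1.2b, a close relative at another chromosome's locus, had 546 units in BOUNTIFUL and 94.5 units in Ws-0. Both signals were again above the control range. Its log2 ratio of 2.44 exceeded that of PDF1.2 by 0.44 and was the 23rd highest among passing genes. Of 1882 passing probe sets of similar mean signal, 16 (0.850%) had a log2 ratio at least as high, and the central 95% ran from -1.27 to 1.57. As for PDF1.2, the rank and share of this chosen gene are a description only. PDF1.2b was read by a probe set with the suffix _x_at, which Affymetrix gives to sets whose probes may also bind other transcripts. The annotation assigns it to PDF1.2b alone. Transcripts of the PDF1.2 genes are very alike, so the signal may include PDF1.2 or other copies, and the values of PDF1.2 and PDF1.2b cannot be counted as readings of separate genes. Of the 15 passing probe sets with that suffix, PDF1.2b was the 1 with an at least 2-fold higher signal in BOUNTIFUL (6.67%), and 0 were at least 2-fold lower.

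**Figure D1:**
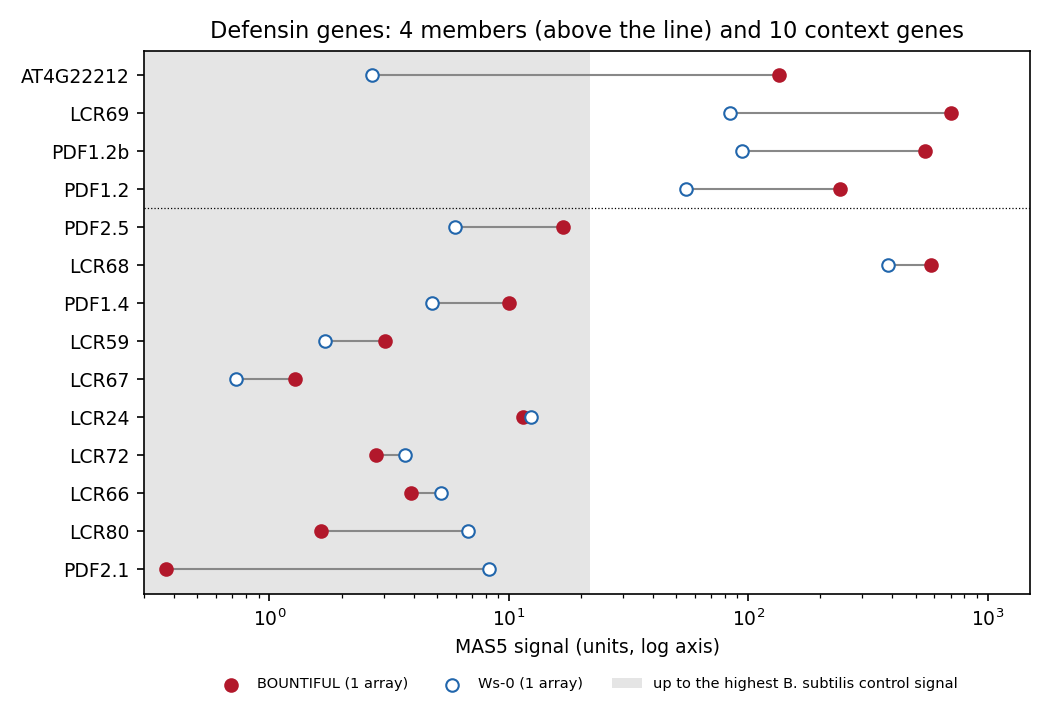
MAS5 signal (log axis) of the 4 defensin genes, above the dotted line, and of 10 other PDF and LCR genes with a named probe set. Filled points are the BOUNTIFUL array and open points the Ws-0 array, 1 array each with no error bars, and the shaded band reaches the highest control signal, 21.9 units in BOUNTIFUL. PDF1.2, PDF1.2b and LCR69 lie above the band on both arrays, AT4G22212 only in BOUNTIFUL.

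In the TAIR10.1 gene table, the assembly order places PDF1.2c directly after PDF1.2 on chromosome 5 and PDF1.3 directly before PDF1.2b on chromosome 2. Neither PDF1.2c nor PDF1.3 had a probe set assigned to it alone, and PDF1.5 had none either, so their levels were not analysed here.

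LCR69 had 704 units in BOUNTIFUL and 83.8 units in Ws-0. Both arrays were above the control range. The log2 ratio was 2.96 (3.07 with no pseudocount), the 12th highest among passing genes. Of 1526 passing probe sets of similar mean signal, 9 (0.590%) were at least as high, and the central 95% ran from -1.25 to 1.64. LCR69 was also chosen for its higher signal, so its rank and share are a description only.

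AT4G22212 had 134 units in BOUNTIFUL and 2.67 units in Ws-0. The BOUNTIFUL signal was above the control range and the Ws-0 signal was inside it, so the gene passed the filter through BOUNTIFUL alone. Because the Ws-0 signal cannot be told from background, its log2 ratio of 3.76 is given no rank. The size of that ratio rests on the pseudocount: it was 5.65 with none and 2.53 with 24.8 units, the 40th percentile. Set against the highest control signal on the Ws-0 array, AT4G22212 was at least 8.01-fold higher in BOUNTIFUL, a log2 bound of 3.00.

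Among the defensin genes measurable on both arrays, the order of the log2 ratios was LCR69, PDF1.2b and PDF1.2 on the deposited scale. The probe set of PDF1.2b may also read PDF1.2, so their places may not be those of separate genes. AT4G22212 has no fixed place in this order. Its value was above that of LCR69 on the deposited scale, while with the larger pseudocount LCR69, at 2.75, came above AT4G22212. With 1 array for each genotype no spread was available, and whether neighbours in this order differ could not be tested.

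**Figure D2:**
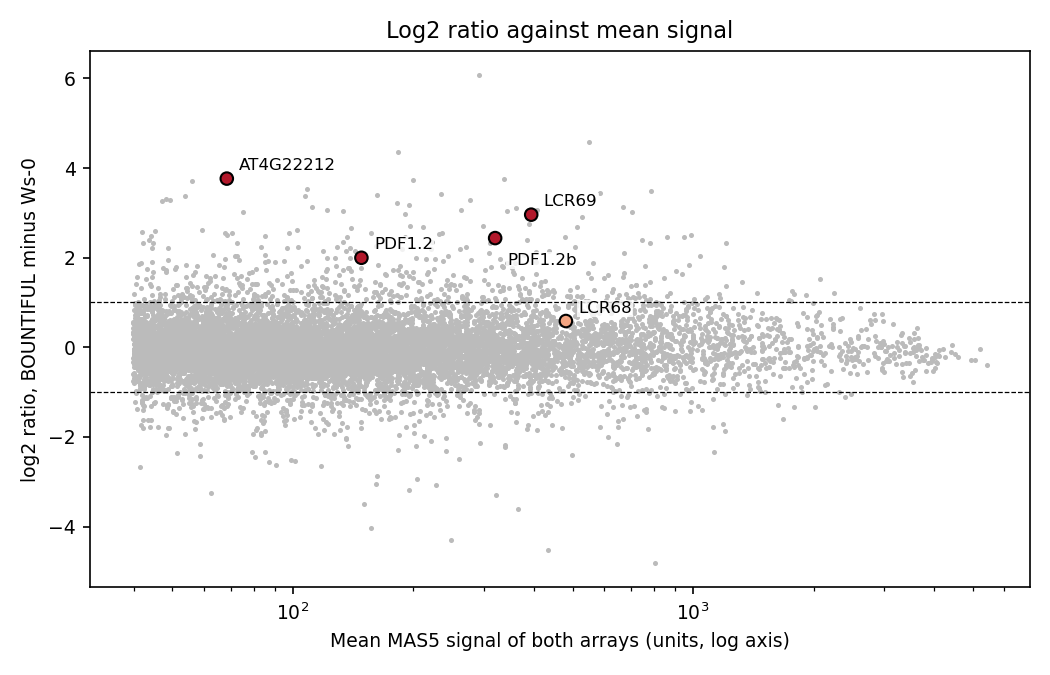
Log2 ratio, BOUNTIFUL minus Ws-0, against mean MAS5 signal of both arrays (log axis) for the 11373 passing probe sets in grey, with the 4 defensin genes in red and LCR68 in orange. Dashed lines mark a 2-fold difference. The red points lie between 2.00 and 3.76, and LCR68 lies at 0.59.

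The wider family was poorly covered. The gene table holds 89 genes with a PDF defensin or numbered LCR symbol, 8 PDF and 81 LCR, of which 13 had a probe set assigned to them alone and 76 had none named here. The peptide deformylase genes PDF1A and PDF1B and the F-box gene LCR share only letters with these symbols and were left out. Beside PDF1.2, PDF1.2b and LCR69, 10 family genes could be read. Of these 10, none reached a 2-fold difference in either direction (0 higher, 0 lower), where 7.16% of all passing named genes did. Nothing is read from this count, since 1 of the 10 passed the filter. On the deposited scale 5 had log2 ratios above 0 and 5 below, with a median of 0.01, while 6 were above 0 when the newer spikes were set equal and 8 when the older ones were. There were 9 below the filter, with both signals in the control range, so for them no difference was detectable at this brightness.

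LCR68, also called PDF2.3, was the exception. It had 579 units in BOUNTIFUL and 383 units in Ws-0, both well above the control range. Its log2 ratio of 0.59 was below the 2-fold mark and above that of 88.5% of passing probe sets. LCR69 exceeded it by 2.37 on the log2 scale, an unequal difference between a pair of genes of the PDF2 group, which was not tested.

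The 9 dim family genes had signals of 0.368 to 16.8 units in BOUNTIFUL and 0.723 to 12.3 units in Ws-0. Their log2 ratios lay between -0.97 and 0.84. PDF2.5 had 16.8 units in BOUNTIFUL and 5.98 units in Ws-0. PDF1.4 had 9.99 units in BOUNTIFUL and 4.79 units in Ws-0. PDF2.1 had 0.368 units in BOUNTIFUL and 8.22 units in Ws-0. In BOUNTIFUL LCR80 had 1.64 units, LCR24 11.4, LCR66 (PDF2.4) 3.90, LCR59 3.03, LCR72 (PDF2.6) 2.78 and LCR67 (PDF1.1) 1.28 units. In Ws-0 LCR80 had 6.73 units, LCR24 12.3, LCR66 5.20, LCR59 1.70, LCR72 3.68 and LCR67 0.723 units. The signals of these 9 genes cannot be told from background.

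LCR69 opens a run of related genes on chromosome 2. From LCR69 to LCR72 the gene table lists 8 genes, among them PDF2.1, LCR68 and the pseudogene LCR71, and 4 of the 8 had a named probe set. LCR69 and LCR68 were measurable on both arrays, while PDF2.1 and LCR72 were in the control range on both. Of the 2 measurable genes LCR69 differed by at least 2-fold on every scaling, and LCR68 did so on 1 scaling, the one with the older spikes set equal.

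**Figure D3:**
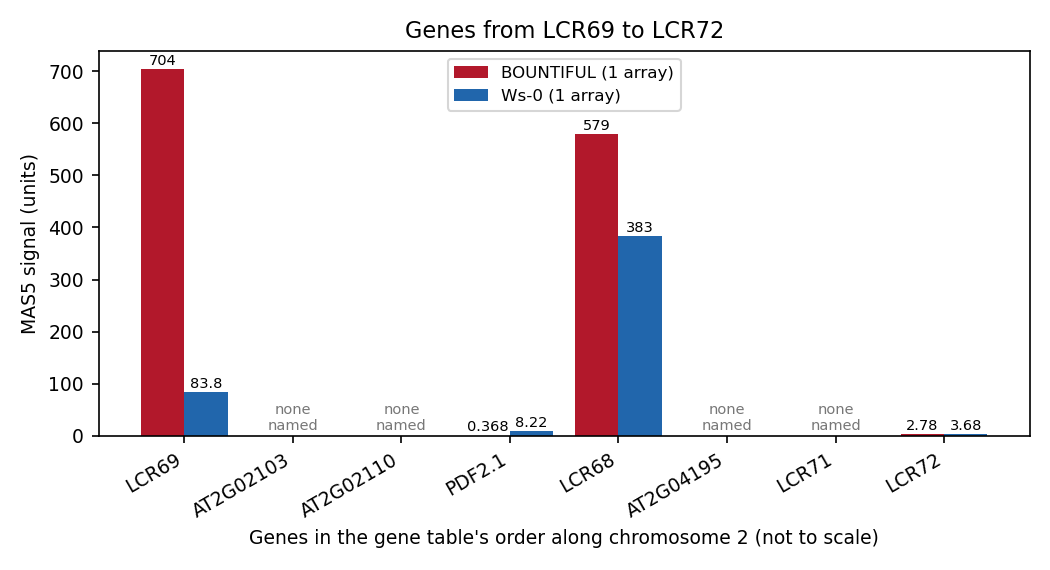
MAS5 signal (linear axis) of the genes from LCR69 to LCR72 in their order along chromosome 2, spaced evenly and not to scale, with BOUNTIFUL in red and Ws-0 in blue (1 array each, no error bars). LCR69 shows 704 units in BOUNTIFUL and 83.8 units in Ws-0, LCR68 579 units in BOUNTIFUL and 383 units in Ws-0, PDF2.1 and LCR72 stay in the control range, and genes marked as not named have no probe set of their own here.

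Around the 4 defensin genes, the 3 genes before and the 3 after each were read where possible. Of these 24 places, 7 had a named probe set, 3 of them above the filter. Of the 3, 0 were at least 2-fold higher or lower, where 7.16% of all passing genes were. With so few genes and so small a share, nothing about the neighbours is read from this count. Next to LCR69, the chromatin remodelling gene ETL1 (AT2G02090) had 59.5 units in BOUNTIFUL and 71.2 units in Ws-0, with a log2 ratio of -0.23 that became 0.08 with the newer spikes set equal. AT5G44450, the 3rd gene after PDF1.2, had 37.3 units in BOUNTIFUL and 45.9 units in Ws-0, with a log2 ratio of -0.25 that became 0.04 on that scaling. AT4G22190, the 3rd gene before AT4G22212, had 118 units in BOUNTIFUL and 108 units in Ws-0, with a log2 ratio of 0.12. The neighbours AT5G44440, AT2G25990, AT2G26050 and PDF2.1 were in the control range on both arrays. LCR85, directly before AT4G22212, had no named probe set.

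To set the PDF1.2 genes beside the pathways known to act on them, 6 lists of jasmonate, ethylene and salicylate genes and of other secreted cysteine-rich peptides were read. They hold 86 genes, of which 10 had a named probe set, 6 of them above the filter. Of these 6, 0 were at least 2-fold higher and 0 were lower by that much, where 7.16% of all passing genes differed that much in either direction. With so few genes and so small a share, nothing about the pathways is read from this count. LOX2, AOS, VSP2, ERF1, ORA59, PR1 and most other standard markers of these pathways had no probe set named here, so the lists were read through few genes.

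OPCL1, a ligase of jasmonate synthesis and the single measured gene of 15 in that list, had 248 units in BOUNTIFUL and 203 units in Ws-0, with a log2 ratio of 0.28. In the jasmonate signalling list of 19 genes, 2 could be read, both transcription factors that act with MYC2. MYC3 had 81.7 units in BOUNTIFUL and 122 units in Ws-0, with a log2 ratio of -0.54. MYC4 had 107 units in BOUNTIFUL and 124 units in Ws-0, with a log2 ratio of -0.20 that became 0.13 with the newer spikes set equal. On the deposited scale the signal of both MYC genes was lower in BOUNTIFUL, by less than 2-fold, while that of PDF1.2 was higher.

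Of the 9 jasmonate-responsive targets outside the ERF branch, 2 could be read and both were below the filter. They are named here although the filter kept them out of the counts. THI2.1, which encodes a thionin, another small antimicrobial peptide induced by jasmonate, had 49.3 units in BOUNTIFUL and 23.6 units in Ws-0. Both signals were above the control range, and the log2 ratio was 0.86, or 1.06 with no pseudocount. It was 1.15 when the newer and 1.31 when the older spikes were set equal. JMT, a methyltransferase that makes methyl jasmonate, had 17.5 units in BOUNTIFUL, inside the control range, and 19.1 units in Ws-0.

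For ethylene, EIN3, the transcription factor upstream of ERF1, had 233 units in BOUNTIFUL and 252 units in Ws-0, with a log2 ratio of -0.11 that became 0.23 with the newer spikes set equal. RTE1, a regulator of the receptor ETR1, had 94.7 units in BOUNTIFUL and 87.7 units in Ws-0, with a log2 ratio of 0.10. These 2 were the readable genes of 16 in the list. Neither gene came near a 2-fold difference.

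Salicylate signalling is known to oppose the induction of PDF1.2. Of 15 genes in that list, GRX480 (AT1G28480), a glutaredoxin that represses PDF1.2 when overexpressed, had 70.4 units in BOUNTIFUL and 81.7 units in Ws-0, with a log2 ratio of -0.19 that became 0.13 with the newer spikes set equal. SAG101, a partner of EDS1, was below the filter with 31.4 units in BOUNTIFUL and 32.1 units in Ws-0. Among 12 other secreted cysteine-rich peptides, the thionin gene THI2.2 was the one with a named probe set. It had 7.47 units in BOUNTIFUL and 6.89 units in Ws-0, both in the control range.

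**Figure D4:**
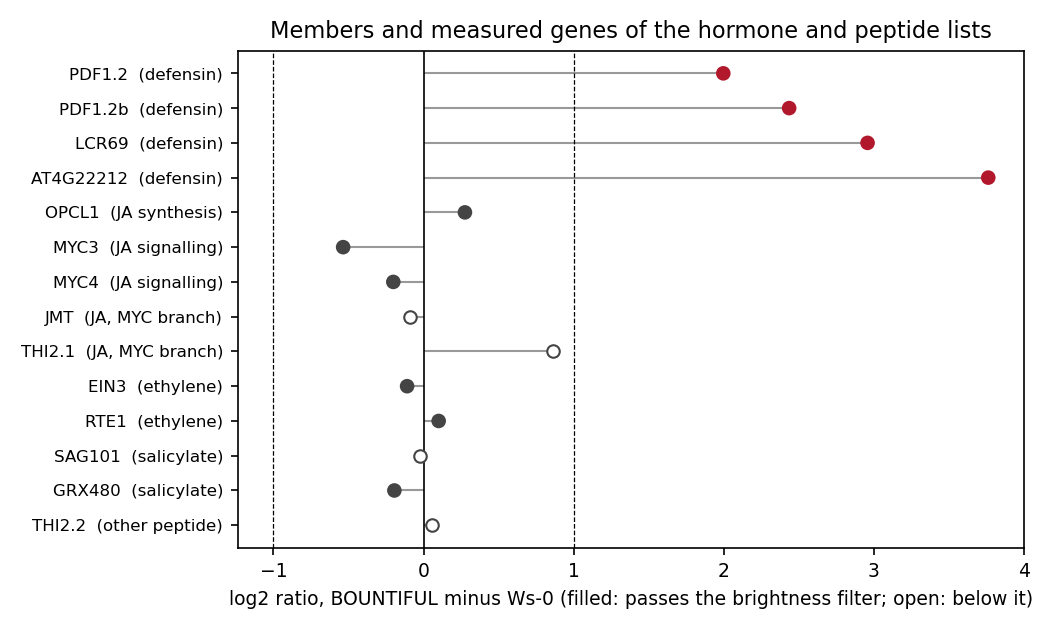
Log2 ratio, BOUNTIFUL minus Ws-0, of the 4 defensin genes (red) and of the 10 readable genes of the hormone and peptide lists (dark), with 1 array each and no error bars. Filled points passed the brightness filter, open points did not, and dashed lines mark a 2-fold difference. The defensin genes lie between 2.00 and 3.76 and the list genes between -0.54 and 0.86.

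The genes whose pair of signals lay closest to each defensin gene were found by the distance between log2(signal + 7.77) values over the 2 arrays. For PDF1.2 they were CHIL (AT5G05270), at a distance of 0.038 with 241 units in BOUNTIFUL and 56.4 units in Ws-0, and AT5G13140, at 0.13. For PDF1.2b they were AT3G18280 (0.25) and AT1G62660 (0.33). For LCR69 they were AT1G06000 (0.28) and AT5G05960 (0.47), and for AT4G22212 they were AT5G42860 (0.34) and RALFL32 (0.83). In Ws-0 AT5G42860 had 2.95 units and RALFL32 had 7.37 units, inside the control range like AT4G22212. The distances to AT4G22212 therefore depend on the 7.77 units added. With 2 arrays, likeness means only a similar brightness on both.

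The 4 differences were read again under other scalings, pseudocounts and filters. With the newer and the older spikes set equal, PDF1.2 had log2 ratios of 2.32 and 2.50, PDF1.2b 2.77 and 2.96, LCR69 3.29 and 3.48, and AT4G22212 had 3.98 with the newer. LCR68, at 0.59 on the deposited scale, had 0.93 and 1.12, so it passed the 2-fold mark with the older spikes set equal.

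**Figure D5:**
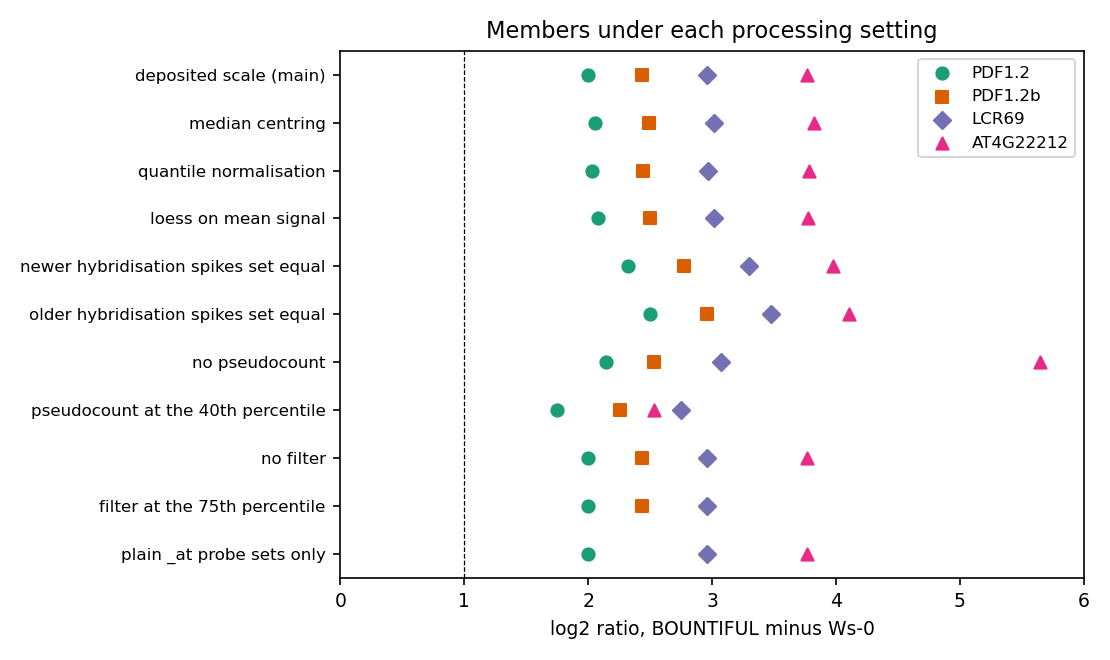
Log2 ratio, BOUNTIFUL minus Ws-0, of the 4 defensin genes under each scaling, pseudocount and filter, 1 value per setting with no error bars. The dashed line marks a 2-fold difference, and a point is missing where the gene did not enter. PDF1.2 lies between 1.75 and 2.50, LCR69 between 2.75 and 3.48, and AT4G22212 spreads from 2.53 to 5.65.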

How the data were processed

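Total RNA of 1 BOUNTIFUL and 1 Ws-0 sample was read on ATH1 arrays. The deposited values are intensity signals on a linear scale, made with MAS5 per the submitters' processing notes; its version is not given in the sources used here. Trimmed means (2% at each end) were 100.0 on both arrays, so no further scaling was applied. Control probe sets (64 of 22810) were left out.

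Gene names came from the platform annotation of 2016, brought up to date through the TAIR10.1 gene table: 13436 of 13513 probe sets with exactly 1 gene matched. That table was used for names and gene order only. Probe sets of 1 gene were averaged. Named genes were the 4 members, every other PDF or LCR gene with a named probe set, passing genes of the hormone and peptide lists, the neighbours and the nearest genes; THI2.1, JMT, SAG101 and THI2.2, below the filter, were added after their values were seen. Members and lists were chosen with earlier results of these data known. The windows of similar brightness were chosen after the values were seen.

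With 1 array per genotype there is no test, no p-value and no spread, and the number of arrays limits precision. Ratios were computed with Python 3.11.15, numpy 2.4.6 and pandas 2.3.3, loess (span 0.3) with statsmodels 0.14.6, and the code was tested on simulated data. No protein or promoter sequences were used here.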

Additional observations from a re-analysis of the deposited data

How the results depend on the processing

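No paired analysis was possible because there was a single array of BOUNTIFUL and of Ws-0, and leaving out either would end the comparison. The alternatives were chosen with earlier results of these data known. A log2 ratio was taken as moved when it differed by over 1.5-fold from its value on the deposited scale. PDF1.2 ranged from 1.75 to 2.50 over 10 alternatives, PDF1.2b from 2.26 to 2.96 over 9 and LCR69 from 2.75 to 3.48 over 10, with none moved. AT4G22212 moved to 5.65 with no pseudocount and to 2.53 with one at the 40th percentile, because its Ws-0 signal, 2.67 units, is smaller than the 7.77 units added. PDF1.2b has no value with plain _at probe sets only, and AT4G22212 none with the filter at the 75th percentile (116 units), so 3 members remained in each of those settings, all at least 2-fold higher. Of the 10 other family genes, 1 was at least 2-fold higher with the newer spikes set equal and 2 were with the older. With no pseudocount 4 differed (2 higher, 2 lower). Of the family genes that differed, LCR68 alone was above the control range. Over all passing probe sets, 1316 differed with the newer spikes set equal, 1793 with the older and 1162 with no pseudocount, beside 980 on the deposited scale. Nothing is read from the family counts. Of the hormone and peptide list genes past the filter, 0 differed by at least 2-fold under each of the 11 alternatives. Those genes numbered 2 with the filter at the 75th percentile, 10 with no filter and 6 otherwise. With so few genes, nothing is read from these counts of 0. THI2.1, below the filter, was at least 2-fold higher with no pseudocount (1.06) and with the newer (1.15) or the older (1.31) spikes set equal. The probe sets with an at least 2-fold difference, 980 on the deposited scale (527 higher, 453 lower), numbered 1793 with the older spikes set equal (1673 higher, 120 lower) and 1316 with the newer (1123 higher, 193 lower). They were 988 with median centring (592 higher, 396 lower), 970 with loess (578 higher, 392 lower), 1747 with no filter and 573 with the filter at the 75th percentile, where more or fewer probe sets enter. Signals in the control range limit what can be read of 9 of the 10 other family genes.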
